A study of Mus musculus with 9 samples.

Results

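The Hoxa cluster is a run of homeobox genes that lie head to tail on 1 strand of mouse chromosome 6. The 9 members described here, Hoxa2, Hoxa3, Hoxa4, Hoxa5, Hoxa6, Hoxa7, Hoxa9, Hoxa10 and Hoxa11, were taken by gene symbol from a table of 39179 genes. They span positions 52162417 to 52245810 of GRCm38 on the minus strand, and all are protein-coding. RNA came from LSK cells, sorted from bone marrow as negative for lineage antigens and positive for Sca1 and cKit, a population of stem and early progenitor cells, and was read by stranded total RNA sequencing after removal of ribosomal RNA. All animals were C57BL/6, 6 months of age, and were given poly(I:C), an inducer of interferon, in 5 injections.

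The mutant group (4 libraries) carried Mx1-Cre and a conditional knock-in allele of Dnmt3a, the de novo DNA methyltransferase, and the design text gives it as Dnmt3a+/m. The Cre-negative group (2 libraries) carried the conditional allele without Cre, and the design text gives it as Dnmt3a+/-. The wild-type group (3 libraries) carried Mx1-Cre and Dnmt3a+/+. Mx1-Cre is driven by an interferon-inducible promoter that is active in blood cells and in other tissues, and how many cells had recombined was not analysed here. Cre-negative animals differ from wild type in the Dnmt3a allele and in the lack of Cre, and these cannot be told apart. Each library carries its group and its title's number as a name, for example cre_negative_819; no label says that they came from separate animals, so p-values measure only the spread between these libraries.

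HOX proteins bind DNA through the homeodomain, mostly together with the TALE-class partners PBX and MEIS, and set positional identity along the body axis of the embryo. In blood the genes are active in stem cells and early progenitors and are switched off as cells mature. Hoxa9 supports stem cell function, and its forced expression together with Meis1 causes leukaemia in mice. In human acute myeloid leukaemia, cases with mutant DNMT3A often have high HOXA and HOXB expression. Trithorax proteins such as KMT2A keep the genes on and Polycomb proteins keep them off.

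CG dinucleotides are the sites that Dnmt3a methylates. RefSeq gives 9 start sites for 8 of the members, and the 250 bases before a start site held from 3 to 28 CG dinucleotides, where the median over all 32851 such windows of the mouse genome (GRCm38.p6) was 6. Of the members, the richest and the poorest in CG and the member with the clearest separation of mutant from wild type are shown, 5′ to 3′ on the minus strand, with each CG in capitals.
Hoxa5, chr6:52204588-52204837: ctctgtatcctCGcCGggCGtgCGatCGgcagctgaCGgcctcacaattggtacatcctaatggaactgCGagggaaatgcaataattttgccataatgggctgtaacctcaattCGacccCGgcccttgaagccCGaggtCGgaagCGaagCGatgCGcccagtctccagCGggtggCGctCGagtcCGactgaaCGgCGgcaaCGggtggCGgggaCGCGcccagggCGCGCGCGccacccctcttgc
Hoxa9, chr6:52227371-52227620: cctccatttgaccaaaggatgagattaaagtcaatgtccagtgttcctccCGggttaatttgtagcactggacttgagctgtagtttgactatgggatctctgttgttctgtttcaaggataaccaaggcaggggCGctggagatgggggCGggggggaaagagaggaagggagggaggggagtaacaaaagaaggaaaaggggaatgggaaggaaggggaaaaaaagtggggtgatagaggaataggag
Hoxa2, chr6:52164832-52165081: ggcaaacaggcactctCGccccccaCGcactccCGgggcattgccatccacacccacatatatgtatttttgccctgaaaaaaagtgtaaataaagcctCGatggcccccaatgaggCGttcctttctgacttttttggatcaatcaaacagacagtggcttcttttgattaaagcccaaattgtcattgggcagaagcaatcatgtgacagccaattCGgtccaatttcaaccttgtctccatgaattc

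The Hoxa5 window held 28 CG, more than 92.4% of all windows. That of Hoxa2 held 6. The Hoxa9 window held 3, and 29.0% of all windows held fewer. The MEIS core motif TGACAG, searched on both strands, occurred 1 time in the window of Hoxa2 and 1 time in that of Hoxa3, and in 15.9% of all windows. The HOX and PBX composite motif TGATNNAT, also on both strands, occurred 1 time in the Hoxa2 window, in no other member's window, and in 7.68% of all windows. In the Hoxa2 window the motifs do not overlap. Not every window lies outside the gene as GENCODE draws it: all 250 bases of the Hoxa3 window are in annotated exons of Hoxa3, and the Hoxa9 window lies within the Hoxa9 gene, with 0 bases in its exons. No methylation was measured here.

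A microRNA of the cluster, miR-196b, lies inside the Hoxa9 gene, and its mature form is shown with the seed (bases 2 to 8) in capitals.
mmu-miR-196b-5p: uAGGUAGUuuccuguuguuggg
All 85 bases of its hairpin fall in an annotated exon of Hoxa9, and its row held 0 counts in all 9 libraries. How the counting treated reads that fall on both genes is not stated; HTSeq commonly sets such reads aside as ambiguous, so the 0 is no measure of the microRNA.

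Gene counts ranged from 47792306 to 58405879 per library, and the members together took 4211 to 7816 of them. Values are in CPM, counts scaled to a common library size after TMM correction. Of the 9 members, 8 passed the filter on low counts and entered the tests. Hoxa11, which patterns the limb and the uterus, did not. It had 0, 1, 2 and 2 counts in the mutant libraries, 0 and 1 in the Cre-negative libraries, and 8, 1 and 0 in the wild-type libraries. With 8 of the 9 libraries at or below 3 counts, no difference was detectable at this depth.

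Hoxa9 had the highest mean level per length in each group, and its range overlapped that of the next member in Cre-negative libraries only. Divided by merged exon length, it stood at 13.8 CPM per kilobase in mutant libraries, 12.4 in the Cre-negative pair and 13.0 in wild type. It made up 35.2% of the members' summed level per kilobase in mutant, 36.2% in Cre-negative and 35.7% in wild type. Hoxa7 and Hoxa6 followed, with 7.56 and 6.82 CPM per kilobase in mutant, 6.65 and 6.93 in Cre-negative and 7.30 and 5.80 in wild type. Library ranges of these neighbours in the order overlapped within every group.

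Below them came Hoxa10 and Hoxa5, whose ranges also overlapped within every group. The mutant means were 4.53 CPM per kilobase for Hoxa10 and 3.93 for Hoxa5, and the wild-type means 4.12 and 3.8. A gap separated these 5 members from Hoxa2, Hoxa3 and Hoxa4. These 3 averaged 1.19, 0.886 and 0.435 CPM per kilobase in mutant, 0.933, 0.810 and 0.493 in Cre-negative and 0.791, 0.875 and 0.662 in wild-type libraries. In mutant libraries Hoxa2 stood before Hoxa3, and in wild-type libraries after it, but their ranges overlapped in both. The cluster was thus strongest from Hoxa5 to Hoxa10, weaker at the Hoxa2 end, and nearly silent at Hoxa11.

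**Figure D1:**
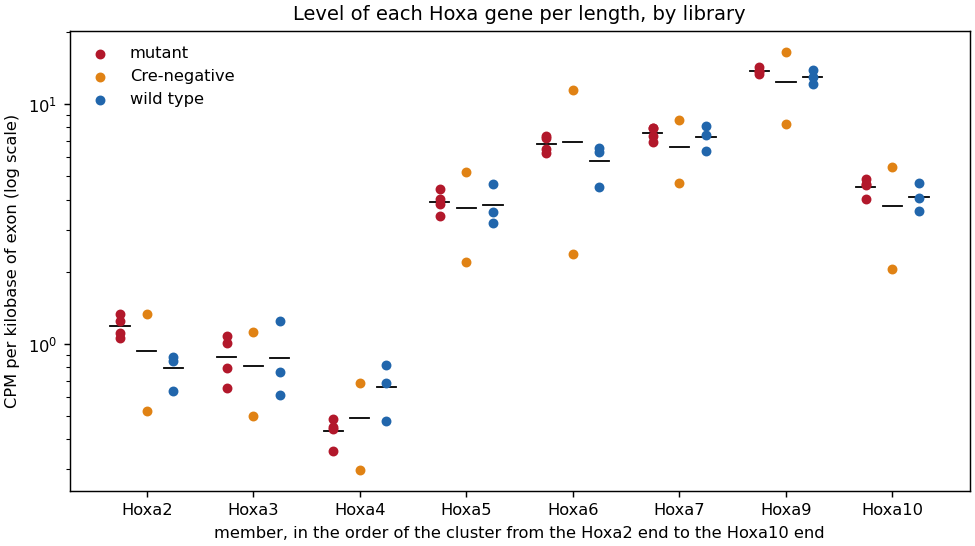
Level of the 8 measured Hoxa genes in CPM per kilobase of exon (log axis), in cluster order from Hoxa2; points are libraries of the mutant, Cre-negative and wild-type groups and short lines are group means. Hoxa9 has the highest mean in each group, and the 2 Cre-negative points lie apart for every gene. Over the mutant and wild-type points together, the highest is 1.177 times the lowest for Hoxa9. For Hoxa4 it is 2.28 times, close to the Cre-negative ratio of 2.299. Hoxa11 is left out because libraries were at 0.

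Summed over the members, mutant libraries held 134.9 ± 4.27 CPM (SD, n = 4) and the wild-type libraries 126.8 ± 3.62 CPM (SD, n = 3). The mutant libraries lay between 131.8 and 141.2 CPM and the wild-type libraries between 122.7 and 129.7 CPM. Mutant and wild-type libraries thus did not overlap, by a margin smaller than either group's range. The Cre-negative libraries lay on either side of both groups, at 164.6 CPM in cre_negative_780 and 77.2 CPM in cre_negative_819. The largest part of these sums was Hoxa9, with means of 76.9 CPM in mutant and 72.3 CPM in wild type. Of the measured members taken singly, all but Hoxa2 overlapped between mutant and wild type.

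Hoxa9 stood at 74.8, 76.5, 76.7 and 79.6 CPM in mutant libraries, at 92.0 CPM in cre_negative_780 and 46.3 CPM in cre_negative_819, and at 67.6, 77.2 and 72.2 CPM in wild-type libraries. The mutant and wild-type ranges overlapped, and the Cre-negative pair enclosed both. Hoxa10, another member whose forced expression expands mouse progenitors, had 16.0, 15.2, 13.1 and 15.0 CPM in mutant libraries, 17.9 and 6.71 CPM in cre_negative_780 and cre_negative_819, and 11.8, 13.3 and 15.4 CPM in wild type. Its mutant and wild-type ranges overlapped too. Hoxa7, which is activated together with Meis1 by retroviral insertion in mouse myeloid leukaemia, had 22.9, 20.03, 21.1 and 23.0 CPM in mutant libraries, 24.7 and 13.5 CPM in cre_negative_780 and cre_negative_819, and 18.4, 23.2 and 21.3 CPM in wild type. Again the highest and the lowest of the 9 values were those of the Cre-negative pair.

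Hoxa6 showed the widest split. It stood at 6.41, 5.68, 5.48 and 6.29 CPM in mutant libraries, at 10.04 CPM in cre_negative_780 and 2.07 CPM in cre_negative_819, and at 5.74, 3.95 and 5.53 CPM in wild type. The level in cre_negative_780 was 4.85 times that in cre_negative_819. Hoxa5, whose human counterpart favours myeloid over erythroid fate when forced in progenitors, ranged from 6.41 to 8.30 CPM in mutant and from 6.00 to 8.73 CPM in wild-type libraries, with 9.75 CPM in cre_negative_780 and 4.14 CPM in cre_negative_819.

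Hoxa2, Hoxa3 and Hoxa4, at the other end of the cluster, are best known for patterning the head, neck and vertebrae. Hoxa2 was the 1 member whose mutant and wild-type libraries did not overlap. It had 1.98, 2.36, 1.87 and 2.20 CPM in mutant libraries (99 to 132 counts), 2.38 and 0.934 CPM in cre_negative_780 and cre_negative_819, and 1.51, 1.57 and 1.14 CPM in wild type (60 to 81 counts). Hoxa4 lay the other way, at 0.719, 0.572, 0.777 and 0.703 CPM in mutant and 1.30, 0.763 and 1.10 CPM in wild-type libraries, which overlapped, with 1.10 and 0.476 CPM in cre_negative_780 and cre_negative_819. These are low levels, of 26 to 70 counts per library.

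Hoxa3, which is needed for the thymus and parathyroids, had 4.77, 3.95, 6.50 and 6.10 CPM in mutant libraries, 6.72 and 3.02 CPM in cre_negative_780 and cre_negative_819, and 7.51, 3.67 and 4.60 CPM in wild type. Hoxa3 had the widest spread within mutant and within wild-type libraries, its highest value being 1.646 times its lowest in mutant and 2.04 times in wild type. For Hoxa9 the same ratios were 1.065 and 1.14, the narrowest of the 8. The share of reads in no annotated gene moved with Hoxa3 within mutant libraries. It was 13.6% and 15.7% in mutant_824 and mutant_827, where Hoxa3 was lower, and 19.4% and 18.5% in mutant_829 and mutant_830, where it was higher. In cre_negative_780 and cre_negative_819 it was 18.2% and 17.8%, although Hoxa3 was lowest in the second of them. Its part in the Hoxa3 values was not tested.

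No member passed the test between mutant and wild type. In edgeR's quasi-likelihood test with Benjamini-Hochberg adjustment over 18576 genes, 0 of 8 members were called, where 0% of all genes were called. None of the 8 had an unadjusted edgeR p under 0.05, against 3.17% of all genes in either direction. DESeq2 called 0 members and 0.137% of its genes, and limma-voom with quality weights 0 members and 0.07%. The 8 members had a median log2 fold change of 0.07, with 7 of 8 positive; over all genes tested the median was -0.02 and 45.7% were positive.

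The largest changes within the cluster were in opposite directions, Hoxa2 at 0.58 (SE 0.31, 95% interval -0.11 to 1.28, edgeR adjusted p = 0.998) and Hoxa4 at -0.61 (SE 0.34, -1.36 to 0.15, adjusted p = 0.998). Their unadjusted edgeR p-values were 0.0918 and 0.104. Hoxa2 was the 1 member of 8 with libraries that did not overlap in the higher direction, as 4.17% of all genes did, and 0 of 8 did so in the lower direction, as 4.15% of genes did. Hoxa9 had a log2 fold change of 0.09 (SE 0.19) with a 95% interval of -0.33 to 0.50, which leaves room for differences of either sign. Hoxa7 had the same SE at 0.05, and its interval ran from -0.36 to 0.47. Wider intervals held for Hoxa10 (0.14, from -0.46 to 0.73), Hoxa6 (0.23, from -0.67 to 1.13), Hoxa5 (0.05, from -0.55 to 0.64) and Hoxa3 (0.02, from -0.71 to 0.75).

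**Figure D2:**
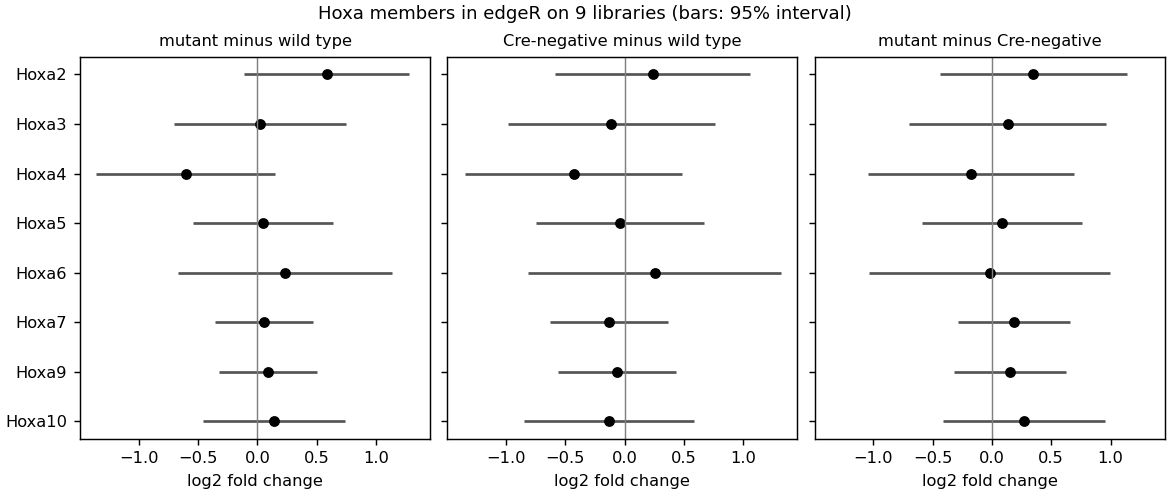
Log2 fold change of each measured Hoxa gene (points) with its 95% interval (bars) in the edgeR fit to 9 libraries, for mutant minus wild type, Cre-negative minus wild type and mutant minus Cre-negative. Every interval crosses 0; Hoxa2 at 0.58 and Hoxa4 at -0.61 lie farthest from 0 in mutant minus wild type.

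Between Cre-negative and wild-type animals the members had no common direction, and the 2 Cre-negative libraries lay far apart. Over all genes their counts differed by a chi-square of 282 per degree of freedom, against 13.4 to 104 for pairs of libraries within the other groups. All 8 measured members were lowest of the 9 libraries in cre_negative_819, as were 21.7% of all genes tested. All 8 were higher in cre_negative_780 than in cre_negative_819, as were 49.5% of genes, and 6 of 8 (not Hoxa3 and Hoxa4) were highest in cre_negative_780, as were 20.6% of genes. The ratio of cre_negative_780 to cre_negative_819 ran from 1.83 for Hoxa7 to 4.85 for Hoxa6, with a median of 2.33, where the median over all genes was 0.995. Relative to each gene's own mean over the 9 libraries, the members' median lay at 0.44 in cre_negative_780 and at -0.74 in cre_negative_819 on the log2 scale. In the other 7 libraries it lay between -0.09 and 0.20.

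**Figure D3:**
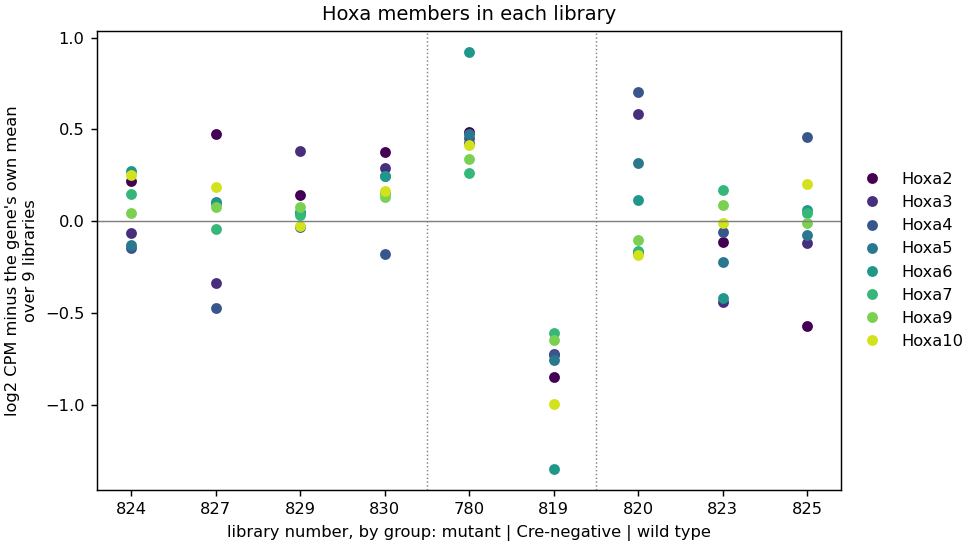
Log2 CPM of each measured Hoxa gene minus its own mean over 9 libraries; columns are the libraries of the mutant, Cre-negative and wild-type groups, separated by dotted lines, and colours are genes. All 8 points lie above 0 in cre_negative_780 and all 8 lie at -0.61 or lower in cre_negative_819.

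With both libraries in the fit, 0 of 8 members were called in edgeR between Cre-negative and wild type, where 0% of all genes were called, and 0 had an unadjusted p under 0.05 (5.23% of genes). DESeq2 and limma-voom also called 0 members, and 0.202% and 0% of genes. The median log2 fold change was -0.09 with 2 of 8 positive, against 0.02 and 53.2% over all genes. Hoxa9 stood at -0.07 (SE 0.22, 95% interval -0.56 to 0.43, edgeR adjusted p of 1) and Hoxa6 at 0.25 (SE 0.48, interval -0.82 to 1.32). This contrast and that of mutant with wild type share the wild-type libraries.

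Each Cre-negative library taken alone gave opposite directions, on the premise that a lone library varies like those of the other groups. With cre_negative_819 alone, edgeR called Hoxa9 (log2 fold change -0.68, adjusted p = 0.0165), Hoxa10 (-1.04, adjusted p = 0.0217) and Hoxa6 (-1.33, adjusted p = 0.0349) lower than wild type, 3 of 8 members where 1.39% of genes were called lower. All 8 fold changes were then negative. With cre_negative_780 alone none of the 8 was called in edgeR, where 0.292% of genes were called higher, and all 8 fold changes were positive, from 0.04 for Hoxa4 to 0.97 for Hoxa6.

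**Figure D4:**
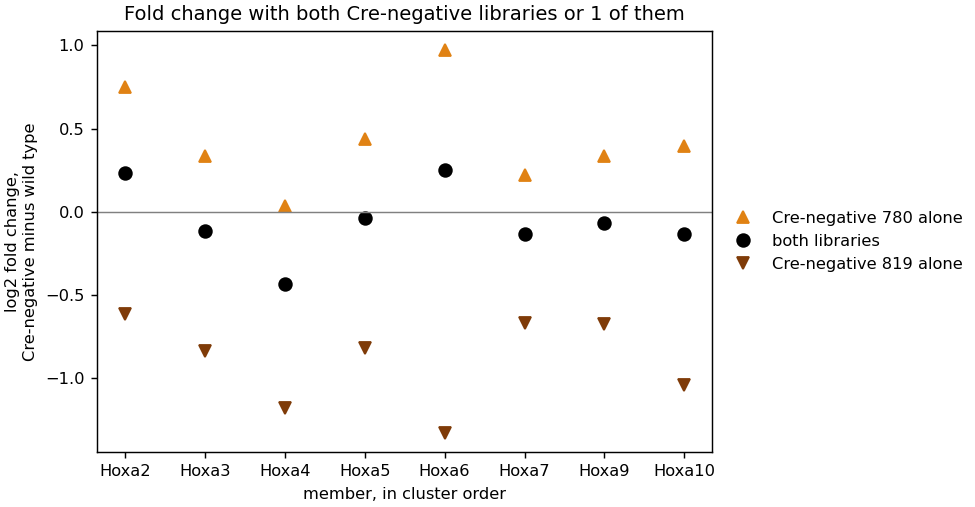
Log2 fold change of each measured Hoxa gene, Cre-negative minus wild type, in edgeR with cre_negative_780 alone (upward triangles), with both libraries (circles) and with cre_negative_819 alone (downward triangles). All 8 genes lie above 0 with cre_negative_780 alone and below 0 with cre_negative_819 alone.

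The comparison of mutant with Cre-negative, both of which carry the conditional allele and of which the mutant alone has Cre, rested on the same pair. Again 0 of 8 members were called in edgeR (0% of genes) and 0 had an unadjusted p under 0.05 (5.26% of genes), and DESeq2 and limma-voom called 0 members, with 0.0976% and 0% of genes. The members' median log2 fold change was 0.14 with 6 of 8 positive, against -0.03 and 44.2% over all genes. Hoxa9 stood at 0.15 (SE 0.21, 95% interval -0.32 to 0.62, edgeR adjusted p = 0.965) and Hoxa2 at 0.35 (SE 0.36, interval -0.44 to 1.14). Without cre_negative_780, edgeR called Hoxa6 (1.57), Hoxa7 (0.735), Hoxa9 (0.78) and Hoxa10 (1.19) higher in the mutant, 4 of 8 where 5.24% of genes were called higher, each resting on cre_negative_819 alone. Without cre_negative_819, all 8 fold changes were negative, from -0.148 for Hoxa2 to -0.723 for Hoxa6, each resting on cre_negative_780 alone.

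Markers of other cells and of LSK subsets moved with these libraries. In cre_negative_819 the 10 erythroid markers summed to 2594 CPM, against 319.0 CPM in cre_negative_780, 258.0 to 440.5 CPM in mutant and 259.0 to 483.4 CPM in wild-type libraries. Car1, which encodes an enzyme found in young erythroid cells, had 1442 CPM in cre_negative_819 and 108.4 CPM in cre_negative_780. Of the 10 erythroid markers, 1 was higher in cre_negative_780 than in cre_negative_819. Mast cell and basophil markers (6 genes) summed to 240.8 CPM in cre_negative_819, 64.7 CPM in cre_negative_780, 53.0 to 91.4 CPM in mutant and 80.8 to 111.5 CPM in wild type.

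Most markers of long-term stem cells were, like the Hoxa members, higher in cre_negative_780 than in cre_negative_819 (10 of 12, with a median ratio of 2.33). The 12 markers summed to 1307 CPM in cre_negative_780 and 685.7 CPM in cre_negative_819, against 1068 to 1104 CPM in mutant and 873.2 to 1151 CPM in wild type. Of the 12, 9 were lowest in cre_negative_819. This list is not separate from the others, as it shares Meis1 with the cofactors, Mllt3 with the activators and Hoxb5 with the Hoxb genes named further on. Procr, the endothelial protein C receptor of stem cells, was at 72.9 CPM in cre_negative_780, 11.7 CPM in cre_negative_819, 34.9 to 42.4 CPM in mutant and 35.0 to 49.8 CPM in wild type, the widest split of the 12. Slamf1 and Tek, receptors of stem cells, lay the other way, Slamf1 at 15.1 and 20.2 CPM and Tek at 46.95 and 52.7 CPM in cre_negative_780 and cre_negative_819. Among wild-type libraries the stem cell sums, at 1151, 873.2 and 982.2 CPM, did not follow the Hoxa sums, at 122.7, 129.7 and 127.9 CPM in the same libraries. Lymphoid-primed progenitor genes (9) summed to 2070 and 1184 CPM in cre_negative_780 and cre_negative_819, against 1415 to 1681 CPM in mutant and 1543 to 1758 CPM in wild type. Higher levels in cre_negative_780 than in cre_negative_819 also held for 8 of 9 lymphoid-primed, 8 of 8 B cell and 8 of 8 mature neutrophil genes. For granulocyte-monocyte progenitor genes it was 7 of 8, and for macrophage and dendritic cell genes 6 of 7. It was 2 of 6 for measured megakaryocyte genes, 1 of 10 for erythroid genes and 0 of 6 for mast cell and basophil genes. In bulk RNA, fewer cells of a type and less RNA per cell cannot be told apart, and the part of these cell types in the Hoxa values was not tested.

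**Figure D5:**
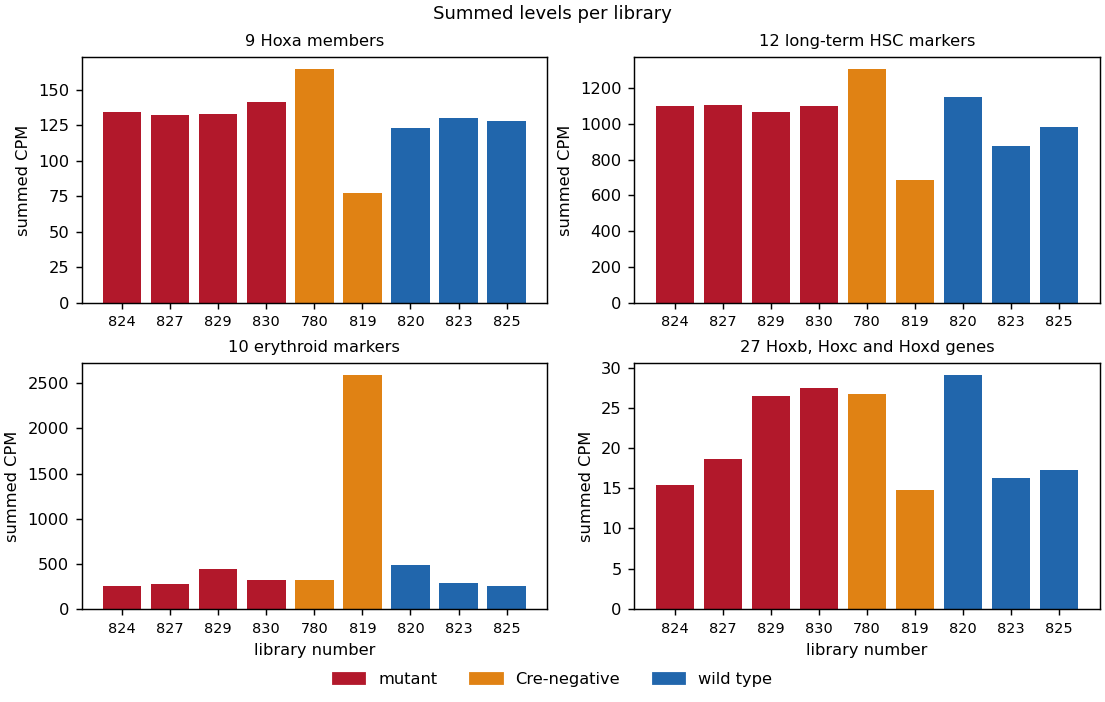
Summed CPM per library of the 9 Hoxa members, 12 long-term stem cell markers, 10 erythroid markers and 27 Hoxb, Hoxc and Hoxd genes; bars are libraries, coloured by group (mutant, Cre-negative, wild type). Library cre_negative_819 has the lowest Hoxa and stem cell sums (77.2 and 685.7 CPM) and the highest erythroid sum (2594 CPM).

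Genes listed for LSK cells (5) were Kit and Ly6a, for the sorted cKit and Sca1, and Cd34, Flt3 and Ptprc, which the stated sort does not name. All 5 were present in every library, with sums of 2410 to 2990 CPM in mutant, 2817 and 2158 CPM in cre_negative_780 and cre_negative_819, and 2751 to 3030 CPM in wild type. The 7 lineage genes that the sort depletes summed to 48.5 to 88.3, 63.4 and 105.2, and 58.0 to 88.7 CPM in mutant, cre_negative_780 and cre_negative_819, and wild type. In that order, granulocyte-monocyte progenitor genes (8) summed to 1633 to 1858, 2161 and 1541, and 1189 to 1570 CPM, and megakaryocyte genes (7) to 288.0 to 368.8, 244.8 and 345.1, and 260.2 to 304.7 CPM. Mature neutrophil genes (8) gave 134.6 to 414.6, 326.9 and 40.0, and 52.6 to 165.3 CPM. Their sum too was lowest in cre_negative_819, but taken singly 2 of 8 were lowest there, against 21.7% of all genes tested. B cell genes (8) gave 46.7 to 65.0, 63.0 and 37.0, and 35.2 to 49.1 CPM. T and NK cell genes (6) gave 77.4 to 105.9, 80.5 and 72.4, and 81.3 to 110.1 CPM, and macrophage and dendritic cell genes (7) 99.0 to 106.5, 114.8 and 94.0, and 81.9 to 109.1 CPM. Stromal and endothelial genes (9) gave 159.0 to 180.5, 167.5 and 145.5, and 158.8 to 185.1 CPM. Among them Prrx1, a marker of mesenchymal cells, lay at 0 to 0.126 CPM over the libraries.

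Meis1 is the HOX partner best known from leukaemia. It stood at 421.3, 418.6, 409.6 and 417.7 CPM in mutant libraries, 409.7 and 279.5 CPM in cre_negative_780 and cre_negative_819, and 406.9, 366.5 and 374.9 CPM in wild type. It was lowest in cre_negative_819 like the Hoxa members, but in cre_negative_780 it lay within the mutant range. Of 9 cofactors 8 were measured, 3 were lowest in cre_negative_819, and 0 were called in edgeR in any of the 3 comparisons. Of the cofactors, Meis2 had the lowest p between mutant and wild type, at 0.113 ± 0.0483 CPM in mutant (SD, n = 4) and 0.486 ± 0.283 CPM in wild type (SD, n = 3). The log2 fold change was -2.09 (SE 0.65, edgeR adjusted p = 0.998).

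All 20 activators, among them Kmt2a and its partners Men1 and Psip1, were measured; 2 of 20 were lowest in cre_negative_819, and 5 of 20 were higher in cre_negative_780 than in cre_negative_819, with a median ratio of 0.875. None was called in edgeR, and their median log2 fold change was -0.12 in mutant against wild type (3 of 20 positive), 0.04 in Cre-negative against wild type (11 of 20) and -0.18 in mutant against Cre-negative (4 of 20). Mllt3, part of the elongation complex with Dot1l, averaged 92.9 ± 19.7 CPM in Cre-negative (SD, n = 2) and 66.3 ± 13.2 CPM in wild type (SD, n = 3), with a log2 fold change of 0.49 (SE 0.17, edgeR adjusted p = 0.823).

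The 16 Polycomb genes were likewise not called, with medians of -0.07, 0.04 and -0.10 in these comparisons and 5 of 16 lowest in cre_negative_819. Ezh2, the histone H3 lysine methyltransferase of Polycomb, averaged 131.6 CPM in mutant, 159.5 CPM in Cre-negative and 152.7 CPM in wild-type libraries, the Cre-negative pair being 115.9 CPM in cre_negative_780 and 203.1 CPM in cre_negative_819. Of the 16, 8 were higher in cre_negative_780 than in cre_negative_819, with ratios from 0.571 to 2.87 and a median of 1.02. Cbx7, a chromobox reader that is high in stem cells, had the highest of these ratios, at 48.3 CPM in cre_negative_780 and 16.8 CPM in cre_negative_819.

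Among 14 genes bound or raised by HOXA9 and MEIS1 in mouse leukaemia models, 13 were measured and 8 of 13 were lowest in cre_negative_819. None was called in edgeR, and the medians were 0.02 in mutant against wild type, -0.10 in Cre-negative against wild type and 0.03 in mutant against Cre-negative. Flt3, a cytokine receptor, stood at 769.7 and 348.2 CPM in cre_negative_780 and cre_negative_819, against 423.8 to 581.8 CPM in mutant and 508.1 to 540.4 CPM in wild type. Cd34 differed, with both Cre-negative libraries, at 1017 and 903.7 CPM, below every wild-type library (1109 to 1498 CPM); its log2 fold change was -0.43 (SE 0.17, edgeR adjusted p = 0.871).

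Genes that flank the cluster on chromosome 6 were examined in the same way. Of 9 neighbours 8 were measured, 1 was lowest in cre_negative_819, and 2 were higher in cre_negative_780 than in cre_negative_819. Skap2, an adaptor gene on the Hoxa2 side, was that lowest gene, at 146.3 and 137.5 CPM in cre_negative_780 and cre_negative_819, 162.0 to 184.5 CPM in mutant and 171.6 to 218.9 CPM in wild type. Its fold change for Cre-negative against wild type was -0.42 on the log2 scale (SE 0.12, edgeR adjusted p = 0.792). Hibadh, a gene of valine breakdown beyond the other end, stood at 82.4 and 100.8 CPM in cre_negative_780 and cre_negative_819 and 82.3 to 91.1 CPM in mutant libraries, against 90.5 to 94.2 CPM in wild type. Evx1, the homeobox gene next to that end, was at 0 counts throughout. The neighbours had median log2 fold changes of -0.10, -0.08 and 0.0003 in mutant against wild type, Cre-negative against wild type and mutant against Cre-negative, with 0 called in edgeR.

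Hoxaas3, which overlaps Hoxa3 and Hoxa7 on the opposite strand, stood at 3.99, 4.395, 5.93 and 6.48 CPM in mutant libraries, 6.32 and 3.06 CPM in cre_negative_780 and cre_negative_819, and 6.02, 3.93 and 4.49 CPM in wild type. Exons of such genes cover 18.2% of the exon bases of Hoxa3, 20.4% of Hoxa7 and 35.0% of Hoxa11. The libraries keep the strand, but no source used here says whether counting used the strand, so the levels of these 3 genes and of their antisense partners are uncertain. Of 8 non-coding genes listed, 3 were measured (Hoxaas2, Hoxaas3 and Hotairm1), with 0 called in edgeR and all 3 higher in cre_negative_780 than in cre_negative_819. Their median log2 fold changes were 0.11, 0.09 and 0.15 in the 3 comparisons.

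The other Hox clusters were compared as well. Of 27 Hoxb, Hoxc and Hoxd genes 8 were measured, all of them Hoxb; all 8 were higher in cre_negative_780 than in cre_negative_819, 4 were lowest in cre_negative_819, and 0 were called in edgeR. The medians were 0.09, 0.16 and 0.06. Hoxb4, which expands stem cells when forced, stood at 10.3, 12.7, 17.4 and 18.5 CPM in mutant libraries, 17.7 and 10.9 CPM in cre_negative_780 and cre_negative_819, and 20, 11.6 and 11.6 CPM in wild type. Its lowest value was that of mutant_824.

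Genes outside the Hox clusters were ranked by how closely their log2 CPM, centred on the mean of 9 libraries, followed Hoxa9. The nearest of 13573 genes with a mean of at least 1 CPM were Man2a2, Sh3bp5, Acap1, Ppp1r18 and Fes, with root mean square differences from 0.049 to 0.073 on the log2 scale. Man2a2, a Golgi mannosidase, stood at 274.3 and 143.9 CPM in cre_negative_780 and cre_negative_819 and at 214.8 to 239.7 CPM in the other 7 libraries. Within the cluster Hoxa7 was closest to Hoxa9, at 0.074, and Hoxa10 next, at 0.17. Hoxa4 was farthest, at 0.39. Placed among the 13573 genes by this distance, Hoxa7 ranked 6, Hoxa10 ranked 727 and Hoxa5 ranked 1485. The remaining measured members ranked from 4367 (Hoxa2) to 9459 (Hoxa4), so many genes outside the cluster lay closer to Hoxa9 than they did.

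Dnmt3a itself, the targeted gene, averaged 160.4 ± 7.69 CPM in mutant (SD, n = 4), 105.5 ± 17.0 CPM in Cre-negative (SD, n = 2) and 159.4 ± 12.9 CPM in wild-type libraries (SD, n = 3). It stood at 117.6 CPM in cre_negative_780 and 93.5 CPM in cre_negative_819, both below every mutant and wild-type library. In cre_negative_819 Dnmt3a was thus the lowest of the 9 libraries, like the Hoxa members, and in cre_negative_780 it was low where 6 of the 8 measured Hoxa members were highest. DESeq2, but not edgeR (adjusted p = 0.594), called it lower in Cre-negative than in wild type (adjusted p = 0.0204). A count per gene holds both alleles together.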

How the data were processed

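The authors deposited raw counts per Ensembl gene for 9 libraries. The submitters' processing notes list mm10 (GRCm38) as build and, as tools, STAR, DESeq2 and HTSeq 0.5.3p3; no source used here names the annotation or the counting strand. Summary lines of the counter (5, with 40.5% to 47.3% of reads) were left out. Symbols, positions and merged exon lengths came from GENCODE M21 of GRCm38, which matched 37607 of 39179 identifiers, and promoter and microRNA sequences from RefSeq, GRCm38.p6; Hoxa4 had no promoter entry. A deposited table of scaled counts was not used.

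Groups came from the sample titles. No pair of libraries within a group was as close as counting error allows (lowest chi-square over degrees of freedom 13.4). Genes were kept with filterByExpr (18576 genes) and scaled by TMM, and edgeR 4.0.16 (quasi-likelihood, R 4.3.3) took all 9 libraries and gave each group its own mean, two-sided, Benjamini-Hochberg threshold 0.05. Standard errors are the log2 fold change over the square root of F. Log2 levels use CPM plus 0.01. The fit was tested on simulated data.

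Members and lists were chosen with earlier results of these data known. Named genes were all members, Dnmt3a, up to 3 genes per list with the lowest p, and the 5 genes closest to the most abundant member. Outside that rule, Procr, Flt3, Cbx7, Hoxb4, Evx1 and Prrx1 were chosen after their values were seen. Alternatives were RLE and upper-quartile scaling, no filter, 1 CPM in 4 libraries, DESeq2 1.42.0, limma-voom 3.58.1 with quality weights, the 2 groups alone, a covariate for Y-linked transcripts (5 of 9 libraries held them), and each library left out.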

Additional observations from a re-analysis of the deposited data

How the results depend on the processing

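No paired analysis was possible because the groups compared share no replicate number. Between mutant and wild type, 0 Hoxa members were called under every alternative tried, leaving out each library included; genes called over the table were 0 in edgeR, 38 in DESeq2 and 13 in limma-voom. Small fold changes turned sign: Hoxa10 to -0.005 in limma-voom, Hoxa3 to -0.014 with the Y-linked covariate, and with a library left out Hoxa3 (-0.176 to 0.39), Hoxa5 (-0.056 to 0.243) and Hoxa7 (-0.01 to 0.137). Hoxa2 (0.466 to 0.675) and Hoxa4 (-0.785 to -0.402) kept their sign with each library left out.

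Between Cre-negative and wild type, DESeq2 called 56 genes and limma-voom turned Hoxa6 to -0.279. With a library left out, 0 to 650 genes and 0 to 3 members were called, and the fold changes ran from -0.616 to 0.748 for Hoxa2, -0.833 to 0.336 for Hoxa3, -1.177 to 0.036 for Hoxa4, -0.817 to 0.435 for Hoxa5, -1.325 to 0.969 for Hoxa6, -0.666 to 0.224 for Hoxa7, -0.675 to 0.333 for Hoxa9 and -1.037 to 0.393 for Hoxa10. Between mutant and Cre-negative, DESeq2 called 27 genes, and Hoxa6 turned to 0.006 with RLE scaling, 0.005 with upper-quartile scaling, 0.007 in DESeq2, 0.444 in limma-voom, 0.008 with the 2 groups alone and 0.105 with the covariate. With a library left out, 0 to 1835 genes and 0 to 4 members were called, and the fold changes ran from -0.148 to 1.216 for Hoxa2, -0.303 to 0.866 for Hoxa3, -0.629 to 0.585 for Hoxa4, -0.373 to 0.879 for Hoxa5, -0.723 to 1.572 for Hoxa6, -0.156 to 0.735 for Hoxa7, -0.229 to 0.78 for Hoxa9 and -0.242 to 1.19 for Hoxa10. The ends of these ranges are the fits that leave out cre_negative_780 or cre_negative_819, where the lone library is assumed to vary like the other groups; the cause of the split was not tested.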

Other observations

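Hoxa2 and its Hoxb counterpart, Hoxb2, were both higher in every mutant library than in every wild-type library; the pair was chosen after its values were seen. Libraries did not overlap in that direction for 4.17% of all 18576 genes, for 1 of 8 measured Hoxa genes and for 1 of 8 measured Hoxb genes. Hoxb2 had 0.859, 0.8575, 1.55 and 1.41 CPM in mutant and 0.726, 0.482 and 0.416 CPM in wild-type libraries, a log2 fold change of 1.11 (SE 0.36, 95% interval 0.32 to 1.90). Its unadjusted edgeR p was 0.0107 and its adjusted p 0.998. The libraries cre_negative_780 and cre_negative_819 held 0.9265 and 0.623 CPM (44 and 34 counts). For Hoxb2, unlike Hoxa2, both lay between the wild-type mean of 0.542 CPM and the mutant mean of 1.17 CPM. By range they were split, with cre_negative_780 within the mutant libraries and cre_negative_819 within the wild-type libraries.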
